A study of Mus musculus with 12 samples.

Results

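Collagens are the structural proteins of the extracellular matrix, each built from chains that are encoded by genes named Col, a type number, the letter a and a chain number. Every gene with such a symbol and a probe set that carries only that symbol in the platform annotation was taken, which gave 42 of the 18193 genes named on the array. By the structure of their products they comprise 11 fibrillar collagens, 6 basement membrane collagens of type IV and 25 other collagens. Where a gene had several probe sets, as 27 of the 42 did, the one with the highest mean over all arrays stood for it.

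The genes were measured in mouse fat cell lines before and after they turned into adipocytes in culture, with 3 Affymetrix arrays in each of 4 groups. White preadipocytes were 3T3-L1 cells, an established embryonic fibroblast line of the white fat type, taken 2 days after confluence (day 0), and white adipocytes were the same line at day 10. Brown preadipocytes were cells of a brown adipocyte line at day 0, also 2 days after confluence, and brown adipocytes were that line at day 8. All cells grew in DMEM with 10% serum, fetal calf serum for the white line and FBS for the brown line.

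Both lines were induced for 3 days with 0.5 mM IBMX, which raises cyclic AMP, 1 µM dexamethasone, a glucocorticoid, and insulin. The white line received 1 µg/mL insulin, kept it for 2 more days and was then held in growth medium. The brown line received 20 nM insulin together with 125 µM indomethacin and 1 nM T3, a thyroid hormone, and stayed in insulin and T3 until harvest. The line, the mix of inducers, the medium that followed and the day of harvest all differed at once, and their parts in a difference between the lines cannot be told apart. The serum was named differently for the lines, and whether it differed is not known. The sample titles call the brown line BFC, and its origin, and whether it is 1 clone, were not stated in the sources used here.

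Fibrillar collagens (types I, II, III, V, XI, XXIV and XXVII) assemble into the striated fibres that give connective tissue its tensile strength, with type V at the core of type I fibres and types II and XI in cartilage. Type IV forms the sheet-like network of the basement membrane, which surrounds every mature fat cell, and type VI forms beaded filaments next to it. Preadipocytes are fibroblast-like cells that secrete a fibrillar matrix, and in adipose tissue the fat cell and its stroma both contribute to the collagen around it.

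The sequences upstream of 5 of these genes are shown because the genes stand for the patterns described here: Col1a2 and Col3a1 fell in brown cells, Col27a1 rose in both lines, and Col4a1 and Col4a2 are transcribed away from each other from overlapping starts and rose together. Each run holds 250 bases before and 50 bases after a transcript start of the gene in the RefSeq promoter table, on the gene's own strand (assembly GRCm38.p6). For Col27a1 this start lies 1403 bases, and for Col4a1 63 bases, inside the outer bound of the annotated gene, and for the other 3 genes it is that bound. They lie at chr6:4505368-4505667 on the + strand (Col1a2), chr1:45311288-45311587 on the + strand (Col3a1), chr4:63215162-63215461 on the + strand (Col27a1), chr8:11312777-11313076 on the - strand (Col4a1) and chr8:11312555-11312854 on the + strand (Col4a2). Capitals mark 3 motifs that were searched on both strands and do not overlap each other. The CCAAT box was read as CCAAT, which on the opposite strand shows as ATTGG. The GC box was read as GGGCGG, which on the opposite strand shows as CCGCCC. The TATA box was read as TATAAA, which on the opposite strand shows as TTTATA.
Col1a2: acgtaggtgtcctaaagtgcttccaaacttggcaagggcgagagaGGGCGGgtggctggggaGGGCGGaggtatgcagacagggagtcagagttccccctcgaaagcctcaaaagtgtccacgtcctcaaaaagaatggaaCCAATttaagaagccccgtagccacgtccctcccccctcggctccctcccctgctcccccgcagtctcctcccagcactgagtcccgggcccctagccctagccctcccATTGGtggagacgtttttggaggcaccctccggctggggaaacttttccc
Col3a1: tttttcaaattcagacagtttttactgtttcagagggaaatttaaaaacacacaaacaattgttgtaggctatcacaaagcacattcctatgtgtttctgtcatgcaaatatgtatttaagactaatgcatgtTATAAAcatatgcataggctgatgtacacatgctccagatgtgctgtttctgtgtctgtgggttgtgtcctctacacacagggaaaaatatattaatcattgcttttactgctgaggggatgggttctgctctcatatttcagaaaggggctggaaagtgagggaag
Col27a1: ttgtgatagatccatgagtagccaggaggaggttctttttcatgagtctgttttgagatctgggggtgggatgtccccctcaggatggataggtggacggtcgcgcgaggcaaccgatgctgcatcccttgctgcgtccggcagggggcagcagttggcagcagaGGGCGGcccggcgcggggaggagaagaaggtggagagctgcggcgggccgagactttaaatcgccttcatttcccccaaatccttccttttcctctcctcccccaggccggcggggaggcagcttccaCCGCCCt
Col4a1: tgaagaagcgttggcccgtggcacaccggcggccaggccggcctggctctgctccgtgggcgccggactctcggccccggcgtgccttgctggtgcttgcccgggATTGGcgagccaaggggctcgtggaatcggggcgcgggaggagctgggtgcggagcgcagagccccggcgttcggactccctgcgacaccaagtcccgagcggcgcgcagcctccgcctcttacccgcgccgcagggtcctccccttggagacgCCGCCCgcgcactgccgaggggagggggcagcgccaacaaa
Col4a2: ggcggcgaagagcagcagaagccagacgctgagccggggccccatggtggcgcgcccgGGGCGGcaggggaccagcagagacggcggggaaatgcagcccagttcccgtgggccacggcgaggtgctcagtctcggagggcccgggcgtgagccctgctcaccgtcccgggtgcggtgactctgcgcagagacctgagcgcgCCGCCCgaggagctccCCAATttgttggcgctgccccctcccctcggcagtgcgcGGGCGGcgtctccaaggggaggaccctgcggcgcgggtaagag

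The windows of Col4a1 and Col4a2 share 78 bases, so those letters appear in both runs on opposite strands. A CCAAT box began 109 bases before the Col1a2 start, 145 bases before the Col4a1 start and 32 bases before the Col4a2 start. The letters TATAAA stood 117 bases before the Col3a1 start, and neither a CCAAT box nor a GC box was found in that window. Of the 42 genes, 33 had a promoter in the RefSeq table, and 13 of these held a CCAAT box, 21 a GC box and 5 a TATA box. Of all 32851 promoters in that table, 37.4% held a CCAAT box, 35.7% a GC box and 13.6% a TATA box. These matches describe letters and no binding was measured.

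Signals are the deposited linear intensities, and changes are differences of log2(signal + 16) with their standard errors (SE) from limma. The two-sided p-values were adjusted (Benjamini-Hochberg) across the 13752 genes whose signal passed the filter level, the 40th percentile of the array (32.9 to 41.2), on at least 3 of the 12 arrays. A gene with an adjusted p under 0.05 is said to have risen or fallen. Ratios of mean signals are given only where both groups lay above the filter level on all arrays. The labels do not say that the 3 arrays of a group came from separate cultures, so p-values measure the spread between these arrays, which may be technical. In extracts of whole cultures, fewer cells of a type and less RNA per cell cannot be told apart.

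Arrays of a group correlated at 0.978 to 0.982 over all probe sets and arrays of different groups at 0.885 to 0.935. RNA integrity was read from the Actb control, whose 3'/5' ratio of signals went from 1.36 to 1.46 in white preadipocytes to 2.08 to 2.35 in white adipocytes, and from 1.43 to 1.56 in brown preadipocytes to 2.39 to 2.48 in brown adipocytes (exact permutation p = 0.1 in each line, the smallest that 3 against 3 can give). The other 3'/5' control ratios, of means, went from 0.861 to 0.828 in white and from 0.775 to 0.814 in brown cells for Gapdh, and from 3.63 to 7.64 and from 5.70 to 6.80 for Pcx (exact permutation p = 0.1 in white and 0.2 in brown cells for both). The part of RNA integrity in the collagen changes was not tested. With the arrays scaled to their hybridization controls, 34.3% of the called genes in white and 31.9% in brown differentiation were rises, against 49.1% and 46.3% as deposited, and 60.6% against 50.5% were higher in brown than in white adipocytes. With equal array medians, 35.6% against 56.8% were higher in brown than in white preadipocytes.

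Markers of the labelled cell types followed the labels with exceptions in both lines. The summed signal of 6 adipocyte markers rose from 8538 to 9368 in white preadipocytes to 87083 to 99127 in white adipocytes, but was already 47833 to 56502 in brown preadipocytes before induction, and reached 85982 to 89415 in brown adipocytes. Adipoq, the adipokine adiponectin, read 18695 ± 2319 in brown preadipocytes and 31.9 ± 16.4 in white preadipocytes (mean ± SD, n = 3). The summed signal of 4 brown fat markers was 23439 to 25197 in brown adipocytes and at most 1983 in the other groups. In white cells this sum rose as well, from 69.3 to 85.5 before to 1792 to 1983 after, and 3 of the 4 markers rose. None of the 5 endothelial markers passed the filter, and the 5 macrophage markers summed to 215 to 304 in every group. Of the 3 macrophage markers tested, 1 rose in white cells (Cd68, log2 change 1.01, SE 0.272, adjusted p = 0.00813) and 2 did not pass. In brown cells all 3 did not pass.

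Of the 42 collagen genes, 32 passed the filter: 10 fibrillar, 4 of type IV and 18 others. In white cells differentiation raised more collagen genes than it lowered: 18 of the 32 rose, 4 fell and 10 did not pass the test, where 30.1% of all tested genes rose and 31.2% fell. The brown line went the other way, with 5 rises, 15 falls and 12 that did not pass, where 27.2% of all tested genes rose and 31.6% fell. The median change was 0.57 in white and -0.48 in brown cells over the collagens, against 0.02 and -0.03 over all tested genes.

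A gene that passed the filter through a single group had to differ between groups, and Col2a1, Col8a2 and Col17a1 did so. Of the 18 collagens above the filter level on all 12 arrays, 12 rose and 3 fell in white cells, and 3 rose and 11 fell in brown cells. Scaling to the hybridization controls moved the white counts to 11 rises and 5 falls, or 68.8% rises among the calls against 81.8%, while no called collagen changed sign in either line.

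The change in brown cells minus the change in white cells was tested directly. It was below 0 for 20 collagens and above 0 for 1, Col27a1, where 27.5% of all tested genes had a lower and 23.6% a higher change in the brown line. Its median was -1.54 over the collagens and -0.05 over all genes. Col2a1 and Col8a2, among the 20, passed the filter through brown preadipocytes alone and so had to differ. Of the 18 collagens above the filter level on all 12 arrays, 15 were called below 0 and 1 above 0. A second gene was called above 0 without white preadipocyte replicate 3 (Col20a1, 1.07, adjusted p = 0.0106) or without white adipocyte replicate 1 (Col17a1, 1.27, adjusted p = 0.0269).

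By direction, 8 genes rose in white and fell in brown cells: Col3a1, Col5a1, Col5a2, Col11a1, Col6a1, Col6a2, Col6a3 and Col14a1. Another 5 rose in both lines (Col4a1, Col4a2, Col11a2, Col20a1 and Col27a1) and 3 fell in both (Col8a1, Col12a1 and Col16a1). None fell in white and rose in brown cells. These joint counts were not made over all tested genes, so whether the collagens depart from them was not tested. The 2 changes come from separate sets of 6 arrays and share no control.

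**Figure D1:**
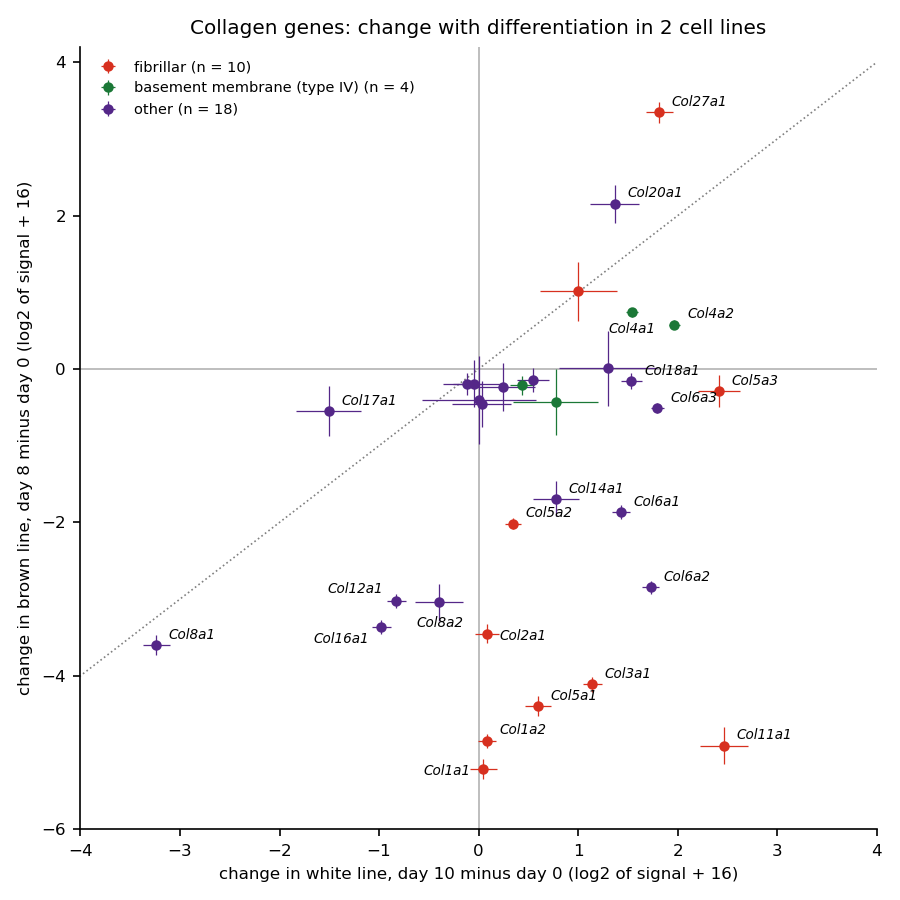
Change of each of the 32 tested collagen genes with differentiation in the white line (horizontal axis) and in the brown line (vertical axis), both in log2 of signal + 16, with bars of 1 SE and the dotted line at equal change. Fibrillar genes other than Col27a1, Col11a2 and Col5a3 lie at changes of -2.02 or lower in the brown line, while the 4 type IV genes lie between -0.43 and 0.74 there.

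Type I collagen, a trimer of chains from Col1a1 and Col1a2, is the main fibrillar collagen of connective tissue. Col1a1 read 2395, 2356 and 2405 in white preadipocytes, 2796, 2212 and 2429 in white adipocytes, 3765, 3547 and 4368 in brown preadipocytes and 69.7, 102 and 97.2 in brown adipocytes. The brown adipocyte arrays stood below all others, and the white groups overlapped. The mean signal in brown cells was 43.4-fold lower after differentiation (log2 change -5.22, SE 0.134, adjusted p = 8.82e-10), and the white change of 0.05 (SE 0.134, adjusted p = 0.778) did not pass.

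Col1a2 read 22788, 25235 and 25671 in white preadipocytes, 27203, 26425 and 24392 in white adipocytes, 23158, 20707 and 19618 in brown preadipocytes and 674, 797 and 690.1 in brown adipocytes. It was 29.4-fold lower in brown adipocytes than in their preadipocytes (log2 change -4.85, SE 0.0920, adjusted p = 1.98e-10). Its white change was 0.08 (SE 0.0920, adjusted p = 0.468). Of its other probe sets, the brighter gave -5.72 in brown and 0.04 in white cells, and the dimmest gave -2.34 in brown cells and fell by 1.36 in white cells, so the white result depends on the probe set.

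Type III collagen, a homotrimer of the Col3a1 chain that runs in mixed fibres with type I, separated the lines further. Col3a1 read 12143, 13258 and 13280.0 in white preadipocytes and 30404, 27049 and 28096 in white adipocytes, a 2.21-fold rise (log2 change 1.14, SE 0.0968, adjusted p = 2.42e-06). The brown line went from 24857, 24333 and 19420.2 to 1304, 1265 and 1336, a 17.6-fold fall (log2 change -4.11, SE 0.0968, adjusted p = 5.02e-10). No array of a group overlapped with those of the same line at the other time. Brown and white adipocytes differed in Col3a1 by -4.44 (SE 0.0968, adjusted p = 2.85e-10).

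Type V chains join type I fibres and limit their diameter. Col5a1 read 2390.2, 2596 and 2744 in white preadipocytes, 4018, 3741 and 3917 in white adipocytes, 7073, 7759.7 and 6203 in brown preadipocytes and 253, 351 and 356 in brown adipocytes. It rose 1.51-fold in white cells (log2 change 0.59, SE 0.130, adjusted p = 0.0024) and fell 21.9-fold in brown cells (-4.40, SE 0.130, adjusted p = 1.92e-09). The highest group was brown preadipocytes and the lowest brown adipocytes, with no overlap between any groups.

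Col5a2, whose gene neighbours Col3a1 on chromosome 1, fell less: from 18316, 18798 and 15823 to 4331, 4469 and 4220.2 in brown cells, a 4.07-fold fall (log2 change -2.02, SE 0.0767, adjusted p = 9.48e-09). In white cells it went from 10917, 11302 and 12275 to 14513, 14454 and 14838, a 1.27-fold rise (0.35, SE 0.0767, adjusted p = 0.00259). The white rises of Col5a1 and Col5a2 were no longer called with the arrays scaled to the hybridization controls. That of Col5a2 was also lost with equal array medians.

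Col5a3, the type V chain of narrower distribution, rose 5.67-fold in white cells, from 225, 215 and 201 to 1311, 1203 and 1114 (log2 change 2.42, SE 0.208, adjusted p = 2.78e-06). The brown groups overlapped, at 370.4, 361 and 353 before and 329, 188 and 399.8 after (-0.29, SE 0.208, adjusted p = 0.26). Without brown adipocyte replicate 3 that change was -0.51 (adjusted p = 0.0427).

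Types II and XI are the fibrillar collagens of cartilage. Col2a1 lay above the filter level in a single group, brown preadipocytes, where it read 199, 244 and 183. In brown adipocytes it read 5.03, 4.57 and 3.67, and in the white groups it stayed between 4.40 and 11.1. The brown change was -3.45 (SE 0.122, adjusted p = 5.98e-09).

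Col11a1 had its highest values in the same group, at 733, 535 and 605, and read 15.0, 1.63 and 1.19 in brown adipocytes (log2 change -4.91, SE 0.240, adjusted p = 5.45e-08). White cells moved the opposite way, from 6.38, 7.92 and 1.49 to 121, 79.2 and 106 (2.47, SE 0.240, adjusted p = 7.07e-06). The difference between the lines was -7.38 (SE 0.340, adjusted p = 7.84e-08), with -4.55 at a pseudocount of 64 and -4.52 on a second probe set. In each line one of the groups read below the filter level, so no ratio is given.

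Col11a2 read 49.8, 65.4 and 41.7 in white preadipocytes, 156, 106 and 103 in white adipocytes, 13.9, 78.1 and 69.9 in brown preadipocytes and 101, 90.1 and 144 in brown adipocytes. Its rises of 1.00 in white and 1.01 in brown cells (SE 0.388 each, adjusted p = 0.0456 and 0.0455) stood at the threshold. The white call was lost without any one of the 6 white or the 3 brown adipocyte arrays (adjusted p = 0.0505 to 0.137). The brown call was lost without any one of 10 arrays, all but brown preadipocyte replicates 2 and 3 (adjusted p = 0.0505 to 0.137), and without brown preadipocyte replicate 1 the rise was 0.48.

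Among 5 chondrocyte markers, the cartilage proteins Acan and Matn1 did not pass the filter. The summed signal of the 5 was 1688 to 2020 in brown preadipocytes and 225 to 269 in brown adipocytes, and 959 to 1063 and 336 to 428 in white cells. Sox9, the transcription factor of cartilage, read 1550 ± 177 in brown preadipocytes and 50.7 ± 6.45 in brown adipocytes. The matrix protein Comp read 141 ± 16.3 in brown adipocytes. All 3 tested markers fell in brown cells, where 31.6% of all tested genes fell. In white cells 1 rose, 1 fell and 1 did not pass, where 30.1% of all tested genes rose and 31.2% fell. The part of these markers in the Col2a1 and Col11a1 results was not tested.

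Col27a1 encodes a fibrillar collagen first described in cartilage, with a shorter triple helix, and rose in both lines. It read 170.5, 144 and 139.8 in white preadipocytes and 557, 656 and 509.8 in white adipocytes, a 3.80-fold rise (log2 change 1.82, SE 0.135, adjusted p = 8.62e-07). Brown cells went from 209, 219 and 294 to 2588, 2478 and 2653, a 10.7-fold rise (3.35, SE 0.135, adjusted p = 1.43e-08). The rise was larger in the brown line by 1.53 (SE 0.190, adjusted p = 8.14e-05), with the opposite sign to the 8 other fibrillar genes called in that comparison.

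Across the 10 fibrillar genes tested, 7 rose and 3 did not pass in white cells, while 2 rose, 7 fell and 1 did not pass in brown cells. Of all tested genes, 30.1% rose and 31.2% fell in white cells, and 27.2% rose and 31.6% fell in brown cells. The difference between lines was called below 0 for 8 of the 10 and above 0 for 1, against 27.5% and 23.6% of all tested genes. Col2a1, among the 7 and the 8, passed the filter through brown preadipocytes alone and so had to differ. The rises of Col11a2 in both lines stood at the threshold. The median changes of the 10 genes were 0.80 in white and -3.78 in brown cells. The eleventh, Col24a1, was below the filter level on all arrays.

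**Figure D2:**
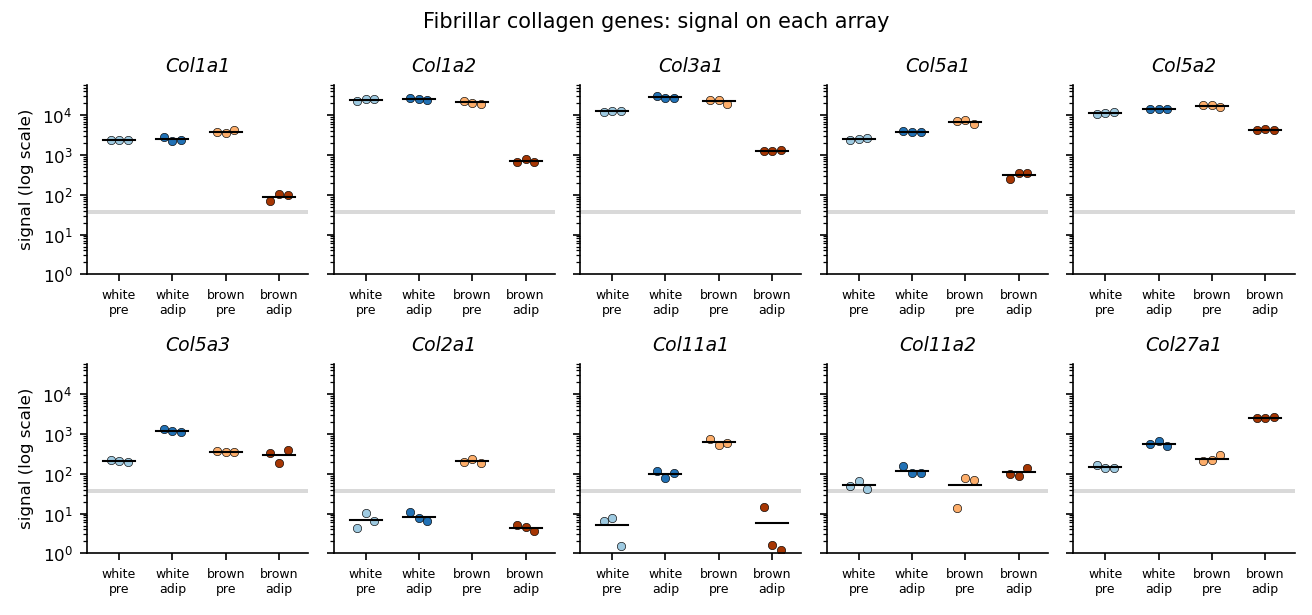
Signal of the 10 tested fibrillar collagen genes on each array (log scale), with 1 point per array, a bar at the mean of the 3 arrays of a group and a grey band at the filter level of 32.9 to 41.2. Brown adipocytes hold the lowest points of Col1a1, Col1a2, Col3a1, Col5a1 and Col5a2, and the highest points of Col27a1, at 2478 to 2653.

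Type IV collagen of the common kind is a trimer of chains from Col4a1 and Col4a2, whose promoter runs, shown above, overlap. Col4a1 read 5457, 5582 and 5791 in white preadipocytes, 16640.1, 16439 and 15979 in white adipocytes, 6814, 6672 and 6193 in brown preadipocytes and 11158, 10758 and 10933 in brown adipocytes. Both adipocyte groups stood above all preadipocyte arrays. The rise was 2.91-fold in white cells (log2 change 1.54, SE 0.0576, adjusted p = 5.36e-09) and 1.67-fold in brown cells (0.74, SE 0.0576, adjusted p = 1.66e-06).

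Col4a2 went from 2196, 2141 and 2203 to 8629, 8644 and 8461 in white cells, a 3.94-fold rise (log2 change 1.97, SE 0.0549, adjusted p = 7.31e-10). The brown line went from 1943, 1919.9 and 1777 to 2781, 2789 and 2880.1, a 1.50-fold rise (0.58, SE 0.0549, adjusted p = 7.05e-06). The rise was smaller in brown than in white cells by 0.80 for Col4a1 (SE 0.0814, adjusted p = 1.96e-05) and by 1.39 for Col4a2 (SE 0.0776, adjusted p = 2.99e-07). Neither gene fell in the brown line, where the type I, III and V chains above did, apart from Col5a3, which did not pass.

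The remaining type IV chains occur in specialised basement membranes such as those of kidney and smooth muscle. Col4a5 read 5402, 4963 and 5176 in white preadipocytes, 7080.0, 6455 and 7546 in white adipocytes, 2763, 2616 and 3629 in brown preadipocytes and 2311, 2743 and 2649 in brown adipocytes. White arrays were higher than brown arrays throughout, and the brown groups overlapped. Its white change of 0.44 (SE 0.124, adjusted p = 0.0106) was called on this probe set and not on a dimmer one of the gene, which gave 0.09. That white call was also lost with equal array medians and with scaling to the hybridization controls. The brown change was -0.21 (SE 0.124, adjusted p = 0.167) here and -0.66 on the dimmer one, where it was called. A brown fall was also called with the mean of all probe sets and with scaling to the hybridization controls.

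Col4a6, which neighbours Col4a5 on the X chromosome, read 10.2, 35.1 and 54.6 in white preadipocytes, 53.2, 73.8 and 59.9 in white adipocytes, 48.7, 69.1 and 41.3 in brown preadipocytes and 55.5, 9.87 and 53.1 in brown adipocytes. Its arrays lay about the filter level and no comparison passed. Col4a3 and Col4a4 did not pass the filter. Of the 4 type IV genes tested, 3 rose in white and 2 in brown cells, and none fell in either on the brightest probe set. Col4a5 fell in brown cells on its dimmer one. Of all tested genes, 30.1% rose and 31.2% fell in white cells, and 27.2% rose and 31.6% fell in brown cells.

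Type VI collagen is built from chains of Col6a1, Col6a2 and a longer one such as Col6a3, and is abundant around fat cells. Its 3 main genes rose in white and fell in brown cells. Col6a1 went from 3106, 3454 and 3223 to 9183, 8693 and 8612 in white cells, a 2.71-fold rise (log2 change 1.43, SE 0.0892, adjusted p = 2.25e-07). Brown cells went from 13848, 13239.6 and 11501 to 3198, 3544 and 3784, a 3.67-fold fall (-1.87, SE 0.0892, adjusted p = 4.66e-08). Brown adipocyte and white preadipocyte values of Col6a1 thus lay in the same range.

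Col6a2, its neighbour on chromosome 10, went from 3733, 4294 and 3701 to 13662, 13008 and 12287 in white cells (3.32-fold, log2 change 1.73, SE 0.0840, adjusted p = 3.43e-08). In brown cells it fell 7.24-fold, from 16793, 16383 and 14321 to 2217, 2143 and 2198 (-2.84, SE 0.0840, adjusted p = 1.9e-09). The lines ended farther apart than they began, and in the opposite order.

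Col6a3 went from 5642, 6099 and 6214 to 21222, 21461 and 19837 in white cells (3.48-fold, log2 change 1.80, SE 0.0674, adjusted p = 5.54e-09). The brown fall was smaller than for its partners, from 10849, 11044 and 10096 to 7531, 7778 and 7141 (1.42-fold, -0.51, SE 0.0674, adjusted p = 8.7e-05). No brown array overlapped between the times.

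Col6a4, a chain related to Col6a3, lay near the floor, with 40.5, 18.0 and 37.7 in white preadipocytes, 55.4, 24.9 and 21.8 in white adipocytes, 26.1, 30.8 and 12.5 in brown preadipocytes and 10.2, 18.6 and 8.12 in brown adipocytes. It did not pass in either line. Its brown against white adipocyte difference of -0.78 (SE 0.296, adjusted p = 0.0431) was lost without brown preadipocyte replicate 1 or brown adipocyte replicates 1 or 3 (adjusted p = 0.0547 to 0.123). Col6a5 did not pass the filter.

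Multiplexins are basement membrane collagens with interrupted helices whose cleaved ends include endostatin, from Col18a1. Col18a1 rose 2.95-fold in white cells, from 466, 559.6 and 473 to 1389, 1498 and 1539 (log2 change 1.54, SE 0.107, adjusted p = 5.18e-07). Brown arrays read 182, 214 and 169.9 before and 163, 185 and 152 after, with overlap (-0.16, SE 0.107, adjusted p = 0.227). Brown adipocytes stood 8.84-fold below white adipocytes (-3.03, SE 0.107, adjusted p = 5.24e-09).

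Its relative Col15a1 was the reverse between the lines, with 311, 246 and 281 in brown preadipocytes and 236, 279.7 and 333 in brown adipocytes, against 36.0, 7.79 and 4.06 in white preadipocytes and 127, 16.6 and 63.3 in white adipocytes. Brown cells stood higher at both times, by 3.34 in preadipocytes (SE 0.493, adjusted p = 0.000228) and 2.04 in adipocytes (SE 0.493, adjusted p = 0.00452). The white rise of 1.30 (SE 0.493, adjusted p = 0.042) came with overlapping arrays and was lost without any one of 10 arrays, all but white preadipocyte replicate 1 and white adipocyte replicate 2 (adjusted p = 0.0526 to 0.154). Without white adipocyte replicate 1 it was 0.80, and without white adipocyte replicate 2 the difference between the lines was called, at -1.86 (adjusted p = 0.0163).

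Fibril-associated collagens sit on the surface of type I and type II fibres. Col12a1 read 794, 697 and 741 in white preadipocytes, 417, 385 and 433 in white adipocytes, 5620.3, 4736 and 5166 in brown preadipocytes and 550.1, 660.1 and 653 in brown adipocytes. Brown preadipocytes stood 6.95-fold above white preadipocytes (log2 difference 2.77, SE 0.0952, adjusted p = 8e-09). The brown fall was 8.33-fold (-3.03, SE 0.0952, adjusted p = 2.81e-09) and the white fall 1.81-fold (-0.83, SE 0.0952, adjusted p = 2.49e-05). A dimmer probe set of Col12a1 gave -2.58 in brown and 0.026 in white cells, and -0.36 where this one gave 0.57 between the adipocytes.

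Col16a1 fell in both lines, 2.00-fold in white cells, from 1175, 1268 and 1230.1 to 611, 609 and 621 (log2 change -0.98, SE 0.0944, adjusted p = 6.67e-06). Its brown fall was 11.5-fold, from 1392, 1318 and 1221 to 111, 97.6 and 133 (-3.36, SE 0.0944, adjusted p = 1.47e-09). Preadipocytes of the lines overlapped, and adipocytes did not.

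Col14a1 rose in white cells by 0.78 (SE 0.230, adjusted p = 0.013), which a second probe set did not pass, and fell in brown cells by 1.69 (SE 0.230, adjusted p = 0.000105). It read 19.2 on average in white and 167 in brown preadipocytes. Col20a1 rose in both lines, from 81.4, 54.6 and 30.2 to 117, 198 and 176 in white cells (1.37, SE 0.251, adjusted p = 0.000753) and from 26.2, 21.3 and 18.8 to 148, 148 and 164 in brown cells (2.16, SE 0.251, adjusted p = 3.38e-05). No other gene of this class rose in brown cells. Its preadipocyte difference of -0.85 (adjusted p = 0.0156) was lost without white preadipocyte replicate 1 (-0.59, adjusted p = 0.0532).

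Col8a1, a short-chain collagen that forms hexagonal networks under endothelia, fell in both lines. It went from 1002, 829 and 962 to 68.4, 90.1 and 95.6 in white cells (11.0-fold, log2 change -3.24, SE 0.135, adjusted p = 1.14e-08). The brown line went from 1178, 1152 and 1165 to 69.3, 77.6 and 99.9 (14.2-fold, -3.60, SE 0.135, adjusted p = 8.58e-09). The difference between these falls was -0.36 (SE 0.191, adjusted p = 0.146). That difference was called without white adipocyte replicate 1 or brown adipocyte replicate 3 (-0.48 in each case, adjusted p = 0.043 to 0.0457).

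Its partner chain Col8a2 passed the filter through brown preadipocytes alone, where it read 216, 212 and 259.7, and read 9.98, 7.30 and 27.5 in brown adipocytes (log2 change -3.04, SE 0.241, adjusted p = 1.91e-06). White arrays read 6.89 to 23.9 and the white change of -0.39 (SE 0.241, adjusted p = 0.189) did not pass. Col17a1, a transmembrane collagen of epithelial attachment sites, passed through white preadipocytes alone, at 69.6, 35.6 and 52.4 against 20.5, 1.70 and 4.43 in white adipocytes (-1.51, SE 0.324, adjusted p = 0.00213). The brown line read 22.3, 6.62 and 19.6 before and 1.37, 12.9 and 3.60 after. Its preadipocyte difference of -1.10 (adjusted p = 0.0151) was lost without brown preadipocyte replicate 2 (-0.86, adjusted p = 0.0606).

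Col7a1, the collagen of anchoring fibrils, did not pass in either line as deposited. Its brown change of -0.20 (adjusted p = 0.269) was called without brown adipocyte replicate 2 (-0.35, adjusted p = 0.0432), and scaling to the hybridization controls gave -0.38 in white (adjusted p = 0.0353) and -0.40 in brown cells (adjusted p = 0.0293). It was lower in brown than in white adipocytes (log2 difference -0.53, SE 0.144, adjusted p = 0.00928). The transmembrane collagen Col23a1 rose in white cells by 0.55 (SE 0.159, adjusted p = 0.0121), and its difference between the lines of -0.69 (adjusted p = 0.0254) was lost without white preadipocyte replicate 3, white adipocyte replicate 1, brown preadipocyte replicate 1 or brown adipocyte replicate 3 (-0.63 to -0.55, adjusted p = 0.0503 to 0.0591). Col9a1, Col9a3 and Col22a1 passed the filter and no comparison called them on the brightest probe set. A dimmer probe set of Col9a1 was called in both lines, at 0.75 in white and -0.52 in brown cells. It was also called for the difference between the lines (-1.27) and between preadipocytes (0.91), and not between adipocytes (-0.36). The 10 genes that did not pass, Col10a1, Col13a1, Col19a1, Col24a1, Col25a1, Col26a1, Col4a3, Col4a4, Col6a5 and Col9a2, read 0.386 to 44.4.

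**Figure D3:**
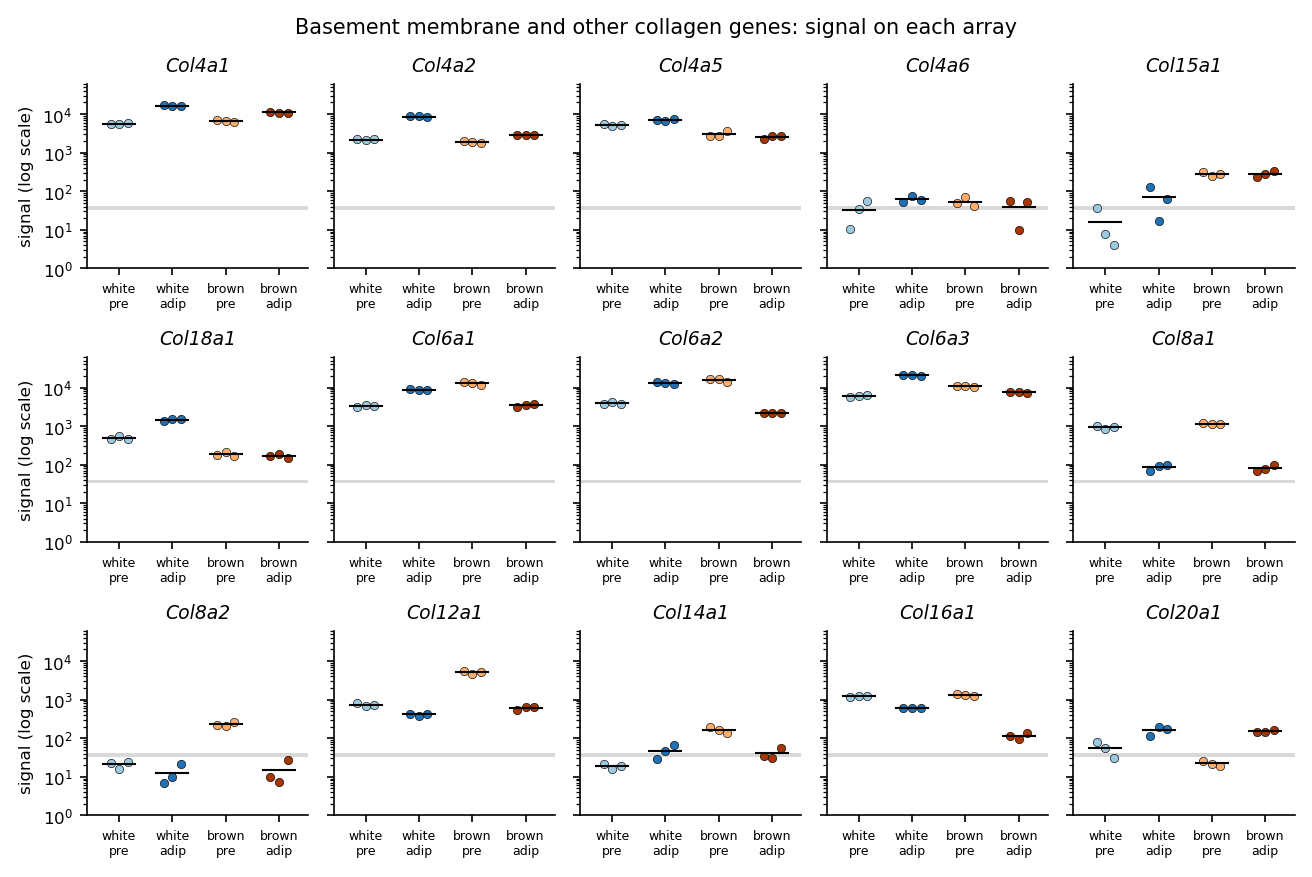
Signal of 15 type IV, multiplexin, type VI, short-chain and fibril-associated collagen genes on each array (log scale), with 1 point per array, a bar at the mean of the 3 arrays of a group and a grey band at the filter level of 32.9 to 41.2. Col6a1 and Col6a2 rise in white and fall in brown cells, Col4a1 and Col4a2 are higher in the adipocytes of both lines, and Col8a1 falls to 68.4 to 99.9 in both.

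Brown and white adipocytes were also compared at harvest. Of the 32 collagens, 17 were lower and 3 higher in brown adipocytes (Col12a1, Col15a1 and Col27a1), where 29.5% of all tested genes were lower and 30.1% higher. The median difference was -0.60 over the collagens and 0.00 over all genes. The largest ratios were in type I, with brown adipocytes 36.1-fold below white for Col1a2 (-5.15, SE 0.0920, adjusted p = 1.42e-10) and 27.6-fold below for Col1a1 (-4.57, SE 0.134, adjusted p = 1.72e-09), followed by Col3a1 at 21.9-fold and Col5a1 at 12.2-fold below.

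Before induction the order was different: 16 collagens were higher and 6 lower in brown than in white preadipocytes, where 31.3% of all tested genes were higher and 23.8% lower. Col2a1 and Col8a2 among the 16, and Col17a1 among the 6, passed the filter through 1 group alone and so had to differ. Of the 18 collagens above the filter level on all 12 arrays, 11 were higher and 4 lower. The 8 fibrillar genes among the 16 included Col1a1, 1.63-fold higher (0.70, SE 0.134, adjusted p = 0.00132), Col3a1, 1.77-fold higher (0.82, SE 0.0968, adjusted p = 4.71e-05), and Col5a1, 2.72-fold higher (1.43, SE 0.130, adjusted p = 6.97e-06). Col6a1 and Col6a2 stood 3.94-fold and 4.05-fold higher. Col1a2, at -0.22 (SE 0.0920, adjusted p = 0.0707), did not pass, and was called without white preadipocyte replicate 1 or brown preadipocyte replicate 1 (-0.28 to -0.27, adjusted p = 0.035 to 0.0495).

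Col4a5 was lower in brown preadipocytes (log2 difference -0.80, SE 0.124, adjusted p = 0.000316), and so was Col18a1, with a difference of -1.33 (SE 0.107, adjusted p = 2.8e-06). The Col4a1 difference of 0.22 (SE 0.0576, adjusted p = 0.00732) became -0.055 with equal array medians. That of Col7a1, -0.44 (adjusted p = 0.0244), was lost without white preadipocyte replicates 1 or 2 or brown preadipocyte replicates 2 or 3 (adjusted p = 0.0571 to 0.0759). The comparisons of adipocytes and of preadipocytes share no arrays with each other, but each shares its arrays with the differentiation comparisons.

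Markers of preadipocytes and fibroblasts fell in the brown line, as 7 of the 10 tested fibrillar collagens did. The summed signal of 5 such markers (Pdgfra, Pdgfrb, Thy1, Dlk1 and Cd34) was 12261 to 12904 in brown preadipocytes and 606 to 679 in brown adipocytes, and all 5 fell. In white cells the sum was 19504 to 21778 before and 8613 to 9494 after, and 3 of 5 fell, whereas 7 fibrillar genes rose there. Of all tested genes, 31.6% fell in brown and 31.2% in white cells. Pdgfra, a receptor of platelet-derived growth factor, read 2595 ± 138 and 2970 ± 269 in white cells and 5514 ± 349 and 131 ± 15.3 in brown cells, before and after. The summed signal of 4 smooth muscle markers, mostly Acta2, fell in both lines, from 12454 to 12954 to 1304 to 1599 in white and from 6528 to 7345 to 547 to 768 in brown cells. Of the 3 tested, 2 fell and 1 rose in white cells (Myh11, log2 change 2.58, SE 0.411, adjusted p = 0.000284). In brown cells 2 fell and 1 did not pass. The part of these markers in the collagen results was not tested.

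Collagen chains are hydroxylated, glycosylated and folded in the endoplasmic reticulum before secretion. Of 20 tested genes for these steps, 18 fell and 2 rose in brown cells (median -1.38), while 12 rose, 6 fell and 2 did not pass in white cells (median 0.31). Of all tested genes, 27.2% rose and 31.6% fell in brown cells and 30.1% rose and 31.2% fell in white cells, and these shares also stand beside the counts of the gene groups that follow. Plod2, the lysyl hydroxylase of fibrillar crosslinks, went from 298, 303 and 347 to 1385, 1489 and 1662 in white cells (log2 change 2.20, SE 0.0858, adjusted p = 7.18e-09) and from 3939, 3891 and 3594 to 677, 669.8 and 629 in brown cells (-2.50, SE 0.0858, adjusted p = 5.03e-09). These are opposite directions, with no overlap within a line.

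Plod1, a related lysyl hydroxylase, read 631, 605 and 506 before and 3314, 3630.3 and 4177 after in white cells (log2 change 2.64, SE 0.140, adjusted p = 6.64e-08). Brown arrays read 789, 629 and 567 before and 801, 957 and 878 after (0.41, SE 0.140, adjusted p = 0.028). A second, dimmer probe set of Plod1 gave -0.50 in white cells and passed in neither line, and the brown call was lost without brown preadipocyte replicates 2 or 3 or brown adipocyte replicates 2 or 3 (adjusted p = 0.0625 to 0.101).

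The prolyl 4-hydroxylase subunit P4ha3 fell in both lines, with a change of -1.92 in white (SE 0.265, adjusted p = 0.000101) and -1.68 in brown cells (SE 0.265, adjusted p = 0.000304). The prolyl 3-hydroxylase P3h2 fell in brown cells from 779.6, 717 and 731 to 68.5, 67.7 and 17.1 (-3.62, SE 0.413, adjusted p = 2.95e-05). Its white change of -0.88 (adjusted p = 0.0912) was called without white preadipocyte replicate 3 or brown adipocyte replicate 3 (-1.28 to -0.88, adjusted p = 0.018 to 0.0353). P3h3, of the same family, fell in both, with changes of -0.77 in white and -2.61 in brown cells. Fkbp14, a prolyl isomerase, had changes of 0.36 in white and -2.67 in brown cells, and -0.32 in white cells on a second probe set.

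Serpinh1, the collagen chaperone HSP47, lies outside the rule for named genes and was chosen after its values were seen. It went from 17138, 16849 and 15043 to 3587, 3983 and 4048 in brown cells (log2 change -2.07, SE 0.0746, adjusted p = 6.86e-09). In white cells it read 6896, 6936 and 6576 before and 8172, 7524 and 7622 after (0.19, SE 0.0746, adjusted p = 0.0467). That white call was lost without any one of 10 arrays, all but brown preadipocyte replicate 3 and brown adipocyte replicate 1 (adjusted p = 0.051 to 0.145), and the value turned to -0.088 with the arrays scaled to the hybridization controls.

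After secretion, proteases trim the propeptides and lysyl oxidases crosslink the fibres. Of 8 tested genes for these steps, 7 fell in each line and none rose, with medians of -0.77 in white and -2.37 in brown cells. Lox, the main lysyl oxidase, read 20661, 20672 and 18858 in brown preadipocytes and 2258, 2620.0 and 2223 in brown adipocytes (log2 change -3.08, SE 0.0962, adjusted p = 2.73e-09). In white cells it read 7091, 8321 and 8019.9 before and 7442, 6274 and 6764 after, with overlap (-0.19, SE 0.0962, adjusted p = 0.108). A white fall of Lox was called with quantile normalization, equal array medians and scaling to the hybridization controls. It was also called with the mean of all probe sets, with an intensity trend and on a second probe set.

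The lysyl oxidase relatives Loxl3 and Loxl4 fell in both lines. Loxl3 changed by -2.16 in white (SE 0.153, adjusted p = 6.16e-07) and -3.53 in brown cells (SE 0.153, adjusted p = 2.37e-08). For Loxl4 the changes were -2.64 in white (SE 0.343, adjusted p = 6.44e-05) and -2.37 in brown cells (SE 0.343, adjusted p = 0.00017). Pcolce, the enhancer of the procollagen C-proteinase, fell from 21737, 23041 and 22721 to 14777, 14089.8 and 13625 in white cells and from 23756, 23199 and 20517 to 3613, 4804 and 4389.5 in brown cells. Tll1, a C-proteinase of the tolloid family, fell in white cells with a change of -1.72 (SE 0.233, adjusted p = 8.82e-05), and was below the filter level in the brown line. It passed the filter through white preadipocytes alone, so it had to differ between groups.

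Of 7 tested receptors and uptake genes, 3 rose and 2 fell in white cells, against 30.1% and 31.2% of all tested genes. In brown cells 1 rose and 4 fell, against 27.2% and 31.6%. Mrc2, the endocytic collagen receptor, went from 1782, 1793 and 1604 to 178, 204 and 139 in brown cells (log2 change -3.21, SE 0.112, adjusted p = 5.75e-09). Its white rise of 0.35 (SE 0.112, adjusted p = 0.02) was lost without white preadipocyte replicates 1 or 3 or white adipocyte replicate 3 (adjusted p = 0.0521 to 0.0583). Ddr2, a receptor tyrosine kinase for fibrillar collagen, and Itgb1, the beta chain shared by collagen-binding integrins, fell in both lines. The Ddr2 changes were -1.19 and -1.50 in white and brown cells, and those of Itgb1 -1.16 and -1.17.

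Itga1, the integrin alpha chain that binds type IV collagen, rose in white cells from 50.0, 27.5 and 29.1 to 119, 184 and 149 (log2 change 1.70, SE 0.182, adjusted p = 1.45e-05). The brown line read 272, 243 and 239.5 before and 171, 175 and 214 after (-0.40, SE 0.182, adjusted p = 0.0816). That change was called without white preadipocyte replicate 1 (adjusted p = 0.0345).

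Collagen-degrading enzymes split by line as well: of 6 tested, 4 rose and none fell in white cells, and 4 fell and none rose in brown cells. The medians were 1.52 and -2.72. Mmp2, the gelatinase that cleaves type IV and denatured collagen, went from 1367, 1631 and 1502 to 8291, 7871 and 8150.4 in white cells (log2 change 2.42, SE 0.130, adjusted p = 7.52e-08). In brown cells it fell from 3379, 3117 and 2768 to 85.5, 54.1 and 68.5 (-5.20, SE 0.130, adjusted p = 7.86e-10). The change differed between the lines by -7.62 (SE 0.185, adjusted p = 2.54e-09).

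Mmp13, a collagenase, rose in white cells from 22.7, 18.1 and 34.7 to 516, 481 and 433 (log2 change 3.60, SE 0.314, adjusted p = 3.04e-06) and was below the filter level on all brown arrays. It was above that level on 3 white adipocyte arrays and 1 white preadipocyte array, so the filter favoured a difference between groups. Mmp14, the membrane-bound collagenase, read 2891, 2695 and 2802 in brown preadipocytes and 346, 349 and 338 in brown adipocytes (-2.96, SE 0.0823, adjusted p = 1.38e-09). Its white change of -0.14 (adjusted p = 0.173) was called without white adipocyte replicate 1 (-0.21, adjusted p = 0.0462). Fap, a fibroblast serine protease, and Ctsk, the collagen-cleaving cathepsin, rose in white cells, with changes of 3.82 and 0.61, and fell in brown cells, with -2.61 and -2.83.

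Of 13 tested genes for other proteins of the basement membrane, 7 rose and 1 fell in white cells, against 30.1% and 31.2% of all tested genes. In brown cells 5 rose and 5 fell, against 27.2% and 31.6%. Lama4, the laminin alpha chain of the fat cell's basement membrane, rose in both, from 206, 206 and 165 to 3388, 3521 and 3570.3 in white cells (log2 change 4.08, SE 0.127, adjusted p = 1.54e-09) and from 558, 757 and 768 to 3211, 3454 and 3627 in brown cells (2.29, SE 0.127, adjusted p = 1.33e-07). The adipocyte groups of the lines overlapped, and the preadipocyte groups did not.

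Lamb3, a laminin beta chain, rose from 27.3, 11.3 and 3.66 to 850.2, 983 and 727 in white cells (log2 change 4.92, SE 0.298, adjusted p = 1.81e-07) and from 31.6, 15.9 and 41.0 to 233, 334 and 336 in brown cells (2.82, SE 0.298, adjusted p = 1.64e-05). Nid2, a nidogen that links laminin to type IV collagen, moved in opposite directions, like Col3a1 and Col5a1, from 58.3, 66.1 and 61.3 to 426, 372 and 388 in white cells and from 2279, 2248 and 2117 to 165, 183 and 223 in brown cells. Lama3 read 105, 90.9 and 108 in brown preadipocytes and 5.48, 3.60 and 10.1 in brown adipocytes (-2.40, SE 0.262, adjusted p = 2.09e-05). Lama3 was above the filter level only on 3 brown preadipocyte arrays and 1 white preadipocyte array, so the filter favoured a difference between groups.

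**Figure D4:**
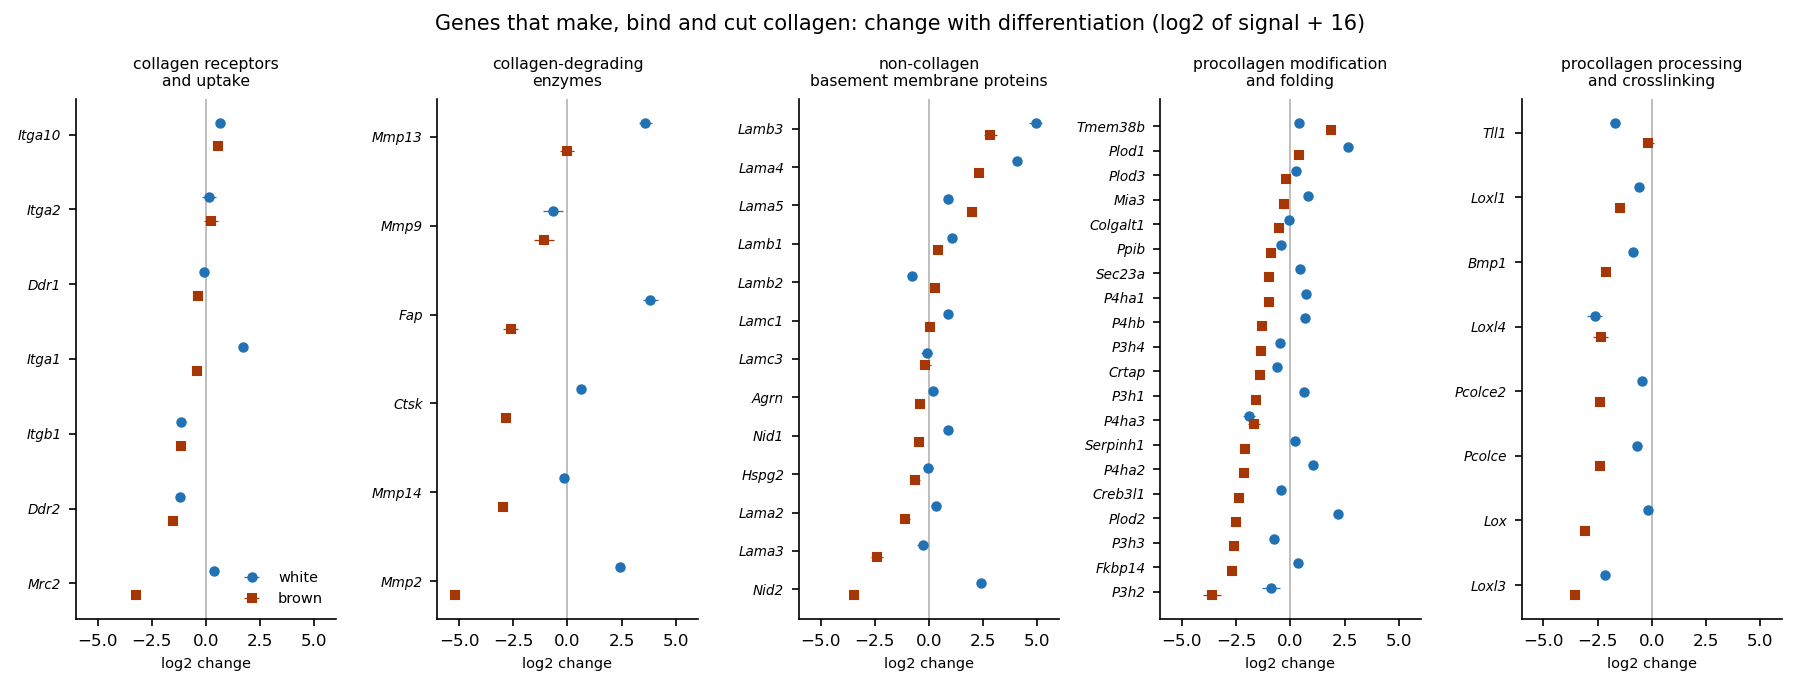
Change with differentiation in the white line (circles) and the brown line (squares) of the tested genes that bind, cut, accompany, modify and crosslink collagen, in log2 of signal + 16, with bars of 1 SE. In the panel of modification and folding, 18 of 20 brown squares are called below 0, and in the panel of processing and crosslinking 7 of 8 are in each line.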

How the data were processed

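Total RNA of the 4 groups was amplified into biotin-labelled cRNA from the 3' ends of transcripts and hybridised to Affymetrix arrays, per the labels' protocols. The authors deposited an intensity on a linear scale for each probe set on each array. They used Affymetrix Expression Console (submitters' processing notes), its version and algorithm being not given in the sources used here. The mean after trimming 2% at each end was 500.003 to 500.004 on every array, so arrays had been scaled to a common level, which hides a change in total RNA. Precision is limited by the 3 arrays per group.

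Of 45101 probe sets, 34958 had 1 symbol, 932 had several and 9211 were not listed in the platform annotation. The gene identifiers of 34754 matched the RefSeq table of the assembly GRCm38.p6, which changed no symbol. Signals were taken as log2(signal + 16). The filter removed 4441 of 18193 genes. With limma 3.58.1 under R 4.3.3, a model of 4 group means was fitted to all 12 arrays (lmFit and eBayes, 8 residual and 1.81 prior degrees of freedom) in 5 comparisons, and the fit was tested on simulated data. Col6a6, Col21a1 and Col28a1 had no probe set of 1 symbol in the annotation given and are not analysed here. Tables and exact tests used pandas 2.3.3, scipy 1.17.1 and numpy 2.4.6, and plots matplotlib 3.10.9, under Python 3.11.15.

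Collagens were described if they passed the filter, with all arrays for types I, IV, V and VI and for the 4 largest called rises and falls of each comparison. From the lists of genes that modify and fold, process and crosslink, bind, degrade or accompany collagen, the 3 with the largest called change in a line were named. The members and lists were chosen with earlier results of these data known. Same-numbered arrays of different groups correlated at -0.029 to 0.067 in their deviations over 18 pairs, and differently numbered ones at -0.043 to 0.038. No shared deviation was seen, which cannot tell whether same-numbered arrays were handled together.

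The alternatives tried were a pseudocount of 1 or 64, equal medians, quantile normalization, scaling to the hybridization controls, a filter at the 60th percentile or none, averaging the probe sets of a gene, less specific probe sets left out, an intensity trend, robust moderation, only the arrays compared, a replicate block, a threshold of 0.01 and leaving out each array. The second probe set of a gene was added after seeing the data.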

Additional observations from a re-analysis of the deposited data

Results flagged for a closer look

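A differentiation change that differed between the lines, by limma's test of the difference itself, was called for 21 collagens, 20 below and 1 above 0, where 27.5% of all tested genes were called below and 23.6% above 0. It was also called for 22 of the 25 other genes named, a count that the choice of genes with large called changes in a line largely fixes. Values are the brown change minus the white change on the log2 scale. Among fibrillar collagens they were -5.26 for Col1a1, -4.93 for Col1a2, -5.25 for Col3a1, -4.99 for Col5a1, -2.36 for Col5a2, -2.71 for Col5a3, -3.54 for Col2a1 and -7.38 for Col11a1, and 1.53 for Col27a1. For type IV they were -0.80 for Col4a1, -1.39 for Col4a2 and -0.65 for Col4a5, the last not called with equal array medians or at 0.01. For type VI they were -3.30 for Col6a1, -4.57 for Col6a2 and -2.31 for Col6a3. The remaining collagens were Col8a2 at -2.65, Col12a1 at -2.20, Col14a1 at -2.47, Col16a1 at -2.38, Col18a1 at -1.70 and Col23a1 at -0.69. Col2a1 and Col8a2 passed the filter through brown preadipocytes alone and so had to differ.

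Among genes of modification and folding, the differences were -4.70 for Plod2, -2.23 for Plod1, -2.74 for P3h2, -1.85 for P3h3, -3.04 for Fkbp14 and -2.26 for Serpinh1. On second probe sets the Plod1 difference turned to 0.79 (adjusted p = 0.285) and that of Fkbp14 was -0.45 (adjusted p = 0.35). In processing and crosslinking they were -2.88 for Lox, -1.38 for Loxl3, -1.73 for Pcolce and 1.56 for Tll1, which passed the filter through white preadipocytes alone and so had to differ. Receptors gave -3.56 for Mrc2, -2.10 for Itga1, which was -0.89 (adjusted p = 0.0649) on a second probe set, and -0.32 for Ddr2. The Ddr2 call was lost without any one of 9 arrays, all but white preadipocyte replicate 3, white adipocyte replicate 2 and brown preadipocyte replicate 3 (adjusted p = 0.0622 to 0.0946). Degrading enzymes gave -7.62 for Mmp2, -6.43 for Fap, -3.63 for Mmp13, -3.44 for Ctsk and -2.82 for Mmp14, and basement membrane proteins -5.84 for Nid2, -2.10 for Lama3, -2.10 for Lamb3 and -1.79 for Lama4. Mmp13 and Lama3 were each above the filter level on the 3 arrays of 1 group and on 1 further array, so the filter favoured a difference. Line, induction mix and harvest day cannot be told apart in these differences.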

How the results depend on the processing

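Over 57 genes and all comparisons, 5856 of 6082 alternative values kept their side of the threshold, and their direction where called. These include values that were called in neither setting, some of which changed sign. A further 152 lost a call, 66 gained 1, and 8 changed sign with a call before or after. The cause of these changes was not tested. Collagens that rose in white cells numbered 18, and 11 with scaling to the hybridization controls. Those that fell there numbered 4, and 2 without less specific probe sets, where fewer probe sets were tested. The single collagen with a higher change in the brown line became 2 with a pseudocount of 64 and with no filter, and 1 to 2 when an array was left out. Collagens lower in brown preadipocytes numbered 6, and 3 at an adjusted p under 0.01. With equal array medians, all genes higher in brown preadipocytes went from 4307 to 2735 and those lower from 3274 to 4949.

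The sign changes with a call before or after were as follows. On the second probe set they were 0.026 for Col12a1, -0.50 for Plod1 and -0.32 for Fkbp14 in white cells. That probe set also gave 0.79 for Plod1 between the lines and -0.36 for Col12a1 between adipocytes. Others were -0.41 for Col1a2 in white cells with the mean of all probe sets, -0.088 for Serpinh1 in white cells with hybridization scaling and -0.055 for Col4a1 between preadipocytes with equal medians.

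With the replicate block, rises and falls were 17 and 4 in white and 4 and 15 in brown cells, and higher and lower changes 1 and 20 between the lines. Brown against white, they were 3 and 18 in adipocytes and 17 and 6 in preadipocytes. Same-numbered arrays showed no shared deviation, and the main fit used no pairing.

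Relative to the median of all genes, which hybridization scaling shifted by -0.25 in white and -0.19 in brown cells, every called collagen kept its sign under the 3 other scalings. Among the lists, modification genes that rose in white cells went from 12 to 7 with hybridization scaling. Receptors that rose went from 3 to 1 in white cells in 2 alternatives and from 1 to 0 in brown cells in 13. Degrading enzymes that fell in white cells went from 0 to 1 in 5 alternatives, modification genes that rose in brown cells from 2 to 1 in 9, and basement membrane proteins that fell in brown cells from 5 to 3 in 1. Signals near the filter level limit Col4a6, Col6a4, Col11a2, Col15a1 and Col17a1, where sizes depend on the pseudocount. Col11a1, Col2a1 and Col8a2, with groups below that level, also varied widely in size over the alternatives. Their differences between the lines ranged from -11.3 to -4.52, from -5.53 to -2.02 and from -3.26 to -1.75.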
